A study of Mus musculus with 8 samples.

Results

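Transcripts of 10 cardiac transcription factors were followed in mouse heart ventricles after loss of RBX2. The factors, chosen by name as the core set of the heart, were Gata4, Gata6, Nkx2-5, Tbx5, Tbx20, Mef2a, Mef2c, Mef2d, Hand2 and Irx4. They are 10 of the 35275 genes listed, and all 10 were among the 13050 genes tested, which had a mean of at least 0.5 FPKM (fragments per kilobase of transcript, relative to all fragments counted in the library) over the libraries. Polyadenylated RNA of 4 RBX2iCKO and 4 WT ventricles was sequenced. RBX2iCKO hearts carry a tamoxifen-inducible deletion of Rbx2 (gene symbol Rnf7, the RING subunit of some cullin ubiquitin ligases), driven in adult cardiomyocytes by Mer-Cre-Mer under the αMHC promoter. All 8 samples, RBX2iCKO and WT, were given tamoxifen. The sources used here give neither its dose and timing nor the age and sex of the animals. The labels name cardiomyocytes as the cell type, but the protocol describes minced ventricle, and markers of other cell types were present. In such bulk RNA, fewer cells of a type and less RNA per cell cannot be told apart. Nothing in the labels says that each library is a separate mouse, so p-values here reflect only how these samples spread, and that spread may be technical.

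These proteins bind DNA in the nuclei of heart muscle cells and often sit together on the same enhancers. GATA zinc-finger, NK2 homeodomain, T-box, MEF2 and HAND proteins set up the heart in the embryo and maintain contractile, ion channel and natriuretic peptide genes in the adult. In a stressed ventricle several of them are also known to act on the fetal gene program. Their activity depends on partners, modification and location in the cell, none of which RNA levels report.

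The library labels were checked on Rnf7, which had 7.53, 7.08, 6.86 and 7.13 FPKM in RBX2iCKO libraries, against 36.7, 35.3, 40.7 and 36.5 FPKM in WT libraries. It fell by 2.23 on the log2 scale (SE 0.07, adjusted p = 5.8e-07). Esr1, whose ligand-binding part is used in Mer-Cre-Mer, had 266 to 391 FPKM in RBX2iCKO libraries and 0.20 to 2.06 FPKM in WT libraries, although the WT titles begin with MCMWT. The Esr1 signal and the Rbx2 deletion therefore go with the same 4 libraries and cannot be told apart. Recovered fragment totals were 18758692 to 23043686 in RBX2iCKO and 18513924 to 22558094 in WT libraries. Mitochondrial-encoded genes took 14.6% to 18.9% of fragments in RBX2iCKO and 22.5% to 25.0% in WT libraries. FPKM is a share, and the median of all tested genes lay 0.21 above 0 on the log2 scale. Each difference is therefore given as deposited and after median-of-ratios scaling, which brings that median to 0.02.

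Of the 10 factors, Tbx20 alone passed the test on both scales, as higher in RBX2iCKO ventricles. As deposited, 2 factors passed an adjusted p of 0.05 as higher (Tbx20 and Irx4) and 0 as lower, where 33.5% of all tested genes passed as higher and 3.52% as lower (37.0% in either direction). After scaling, 1 passed as higher (Tbx20) and 1 as lower (Mef2d), where the shares over all genes were 8.78% and 10.9%. Without the adjustment, 5 factors had p under 0.05 as deposited and 4 after scaling. The share of all tested genes under that unadjusted p was not taken, so these counts cannot be read as an excess. As deposited, the groups did not overlap for 2 of the 10 factors, Gata6 and Tbx20, both with RBX2iCKO above WT. Over all tested genes that share was 37.8%, with 34.0% higher and 3.79% lower in RBX2iCKO. After scaling, Tbx20 stayed apart and Gata6 overlapped, while Mef2a and Mef2d were apart with RBX2iCKO below WT. The share over all tested genes was not taken on that scale. The median difference of the factors was 0.19 as deposited, beside 0.21 over all tested genes, and -0.06 after scaling, beside 0.02. Between 452 and 5705 fragments per library stood behind each factor's value.

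**Figure D1:**
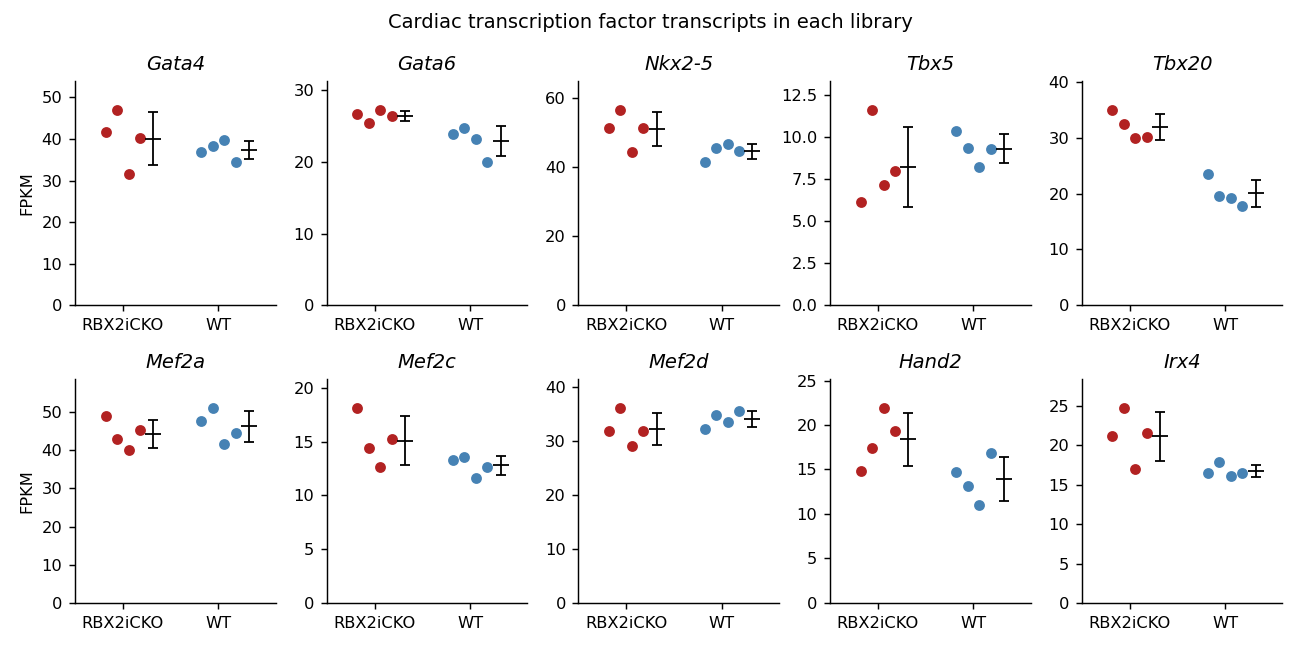
FPKM of the 10 factors (vertical axes, each from 0) in the 4 RBX2iCKO and 4 WT libraries, with points for libraries and bars for mean ± SD. On this scale, as deposited, only for Gata6 and Tbx20 do the points of the groups not overlap.

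Gata4, a zinc-finger activator of many sarcomere and stress genes, had 41.6, 46.9, 31.5 and 40.3 FPKM in RBX2iCKO libraries, against 36.9, 38.2, 39.7 and 34.6 FPKM in WT libraries. The groups overlapped, with both the highest and the lowest value in RBX2iCKO. The difference was 0.09 (SE 0.11, adjusted p = 0.55), and it was -0.16 after scaling (adjusted p = 0.355). Gata6, its close relative, had 26.7, 25.5, 27.2 and 26.3 FPKM in RBX2iCKO libraries and 23.9, 24.7, 23.2 and 19.9 FPKM in WT libraries. All 4 RBX2iCKO values lay above all 4 WT values, yet the difference of 0.20 did not pass (SE 0.08, adjusted p = 0.0621), and it was -0.05 after scaling (adjusted p = 0.76). As deposited it passed with a covariate for the number series in the sample titles, whose meaning the labels do not give (0.23, adjusted p = 0.047). An RNA gene on the opposite strand, 1010001N08Rik, shares 93 exonic bases with Gata6. The sources used here do not give the strand setting of the counting, so reads in that stretch cannot be told apart.

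Nkx2-5, the homeodomain factor that marks heart progenitors and stays on in the adult myocardium, had 51.3, 56.4, 44.4 and 51.4 FPKM in RBX2iCKO libraries, against 41.5, 45.4, 46.6 and 44.6 FPKM in WT libraries. RBX2iCKO replicate 3 lay within the WT range and the other RBX2iCKO libraries above it. The difference was 0.18 (SE 0.08, adjusted p = 0.0971) as deposited and -0.07 (adjusted p = 0.621) after scaling. It passed as deposited without RBX2iCKO replicate 3 (0.25, adjusted p = 0.0256).

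Tbx20, a T-box factor needed for adult cardiomyocyte function, had 35.0, 32.5, 30.0 and 30.2 FPKM in RBX2iCKO libraries, against 23.5, 19.7, 19.2 and 17.9 FPKM in WT libraries. The gene lies at chr9:24718138-24774303 on the minus strand (mm10, GENCODE M21). Every RBX2iCKO value was above every WT value. The means were 31.9 ± 2.32 FPKM in RBX2iCKO and 20.1 ± 2.40 FPKM in WT (SD, n = 4 each), a ratio of 1.59. Tbx20 rose by 0.65 on the log2 scale (SE 0.09, 95% interval 0.44 to 0.85, adjusted p = 0.00221), and 92.7% of tested genes had a lower difference. After scaling the rise was 0.40 (95% interval 0.20 to 0.61, adjusted p = 0.0162). It passed with each library left out in turn, at 0.60 to 0.72 as deposited and at 0.34 to 0.47 after scaling (adjusted p up to 0.00855 and 0.046). Fibroblast markers summed to 1530 to 2438 FPKM in RBX2iCKO and 930 to 1375 FPKM in WT libraries, and endothelial markers to between 266.997 and 314 FPKM in RBX2iCKO and between 198 and 263 FPKM in WT libraries. Their part in the Tbx20 result was not tested.

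The promoter of Tbx20 is shown because this gene carries the result that held on both scales. The RefSeq sequence of build GRCm38.p6 runs from 250 bases before the start site to 50 after it, on the minus strand at chr9:24774254-24774553. An entry of this kind was used for 7 of the 10 factors, and Gata4, Gata6 and Tbx5 are named only. For Gata6 this does not show that an entry is lacking. Short strings that resemble binding sites were searched on both strands, with matches in capitals here and in the promoters that follow. The string for GATA proteins, AGATAA, occurs in 11.18% of 32851 promoters of this length. The string for NKX2-5 and other NK2 proteins, AAGTG, occurs in 46.38% of them. The T-box string, GGTGTGA, occurs in 3.98% of them. The MEF2 string, CTAAAAATA, occurs in 0.52% of them. The E-box string for HAND proteins, CATCTG, occurs in 17.15% of them. None of these letter strings is in the Tbx20 window, nor in those of Nkx2-5, Mef2d and Irx4. Mef2c has windows numbered 1, 2 and 3, with the NK2 string from positions -233, -63 and -58 in turn. Its window 3 also holds the HAND E-box string, from -245. The Mef2c windows are not printed.
Tbx20: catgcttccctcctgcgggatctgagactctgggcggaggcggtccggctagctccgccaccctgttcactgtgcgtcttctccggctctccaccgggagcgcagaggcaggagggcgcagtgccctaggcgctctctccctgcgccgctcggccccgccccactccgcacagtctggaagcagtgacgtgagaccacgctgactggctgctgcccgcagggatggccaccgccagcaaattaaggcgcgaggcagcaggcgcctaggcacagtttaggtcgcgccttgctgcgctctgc

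Tbx5, the T-box factor of ventricular and conduction genes, had the lowest mean FPKM of the 10 in both groups. It had 6.11, 11.6, 7.11 and 7.95 FPKM in RBX2iCKO libraries, against 10.4, 9.33, 8.23 and 9.28 FPKM in WT libraries. RBX2iCKO replicate 2 was the highest of all 8 libraries, and the other 3 RBX2iCKO libraries lay below all WT libraries. The difference was -0.19 (SE 0.16, adjusted p = 0.344) as deposited and -0.42 (adjusted p = 0.0841) after scaling. Without RBX2iCKO replicate 2, Tbx5 passed as lower, at -0.36 as deposited (adjusted p = 0.0404) and -0.57 after scaling (adjusted p = 0.0157). That library also had the highest sum of atrial markers, at 719 FPKM, where the other RBX2iCKO libraries had 25.9 to 218 FPKM and the WT libraries 17.0 to 396 FPKM. Its part in the Tbx5 value was not tested.

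MEF2 proteins are MADS-box activators held in check by class II histone deacetylases and released by calcium-dependent kinases. Mef2a had 48.8, 43.0, 39.9 and 45.3 FPKM in RBX2iCKO libraries, against 47.7, 51.1, 41.6 and 44.5 FPKM in WT libraries. The groups overlapped as deposited. After scaling, the RBX2iCKO values (up to 44.5 FPKM) lay just below the WT values (from 44.8 FPKM). The difference was -0.06 (SE 0.09, adjusted p = 0.592) as deposited and -0.31 (adjusted p = 0.0565) after scaling. After scaling it passed as lower without WT replicate 3 (-0.37, adjusted p = 0.0491). Mef2a shares 302 exonic bases with Lysmd4 on the opposite strand. Its promoter is shown because it holds the MEF2 string, on the plus strand of the gene from position -2 (GRCm38.p6, minus strand, chr7:67372809-67373108).
Mef2a: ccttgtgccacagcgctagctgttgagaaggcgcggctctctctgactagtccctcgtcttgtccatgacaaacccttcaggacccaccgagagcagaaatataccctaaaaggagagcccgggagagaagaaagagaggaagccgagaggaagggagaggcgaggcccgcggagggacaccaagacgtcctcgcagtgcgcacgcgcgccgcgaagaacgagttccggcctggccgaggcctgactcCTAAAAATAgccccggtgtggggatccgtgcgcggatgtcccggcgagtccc

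Mef2d had 31.8, 36.1, 29.0 and 31.8 FPKM in RBX2iCKO libraries, against 32.2, 34.8, 33.5 and 35.5 FPKM in WT libraries. The groups overlapped as deposited, with 3 RBX2iCKO libraries below all WT libraries and 1 above them. After scaling, the RBX2iCKO values (up to 32.3 FPKM) lay below the WT values (from 34.3 FPKM). As deposited the difference was -0.08 (SE 0.08, adjusted p = 0.412). After scaling it was -0.33 (95% interval -0.50 to -0.15, adjusted p = 0.019), and it passed there with each library left out in turn. It did not pass after quantile normalization or with mitochondrial-encoded genes removed, so the call rests on the scaling.

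Mef2c, the MEF2 gene first needed in heart development, had 18.1, 14.4, 12.7 and 15.2 FPKM in RBX2iCKO libraries, against 13.3, 13.6, 11.6 and 12.6 FPKM in WT libraries. RBX2iCKO replicate 3 lay within the WT range and the other 3 above it. The difference was 0.22 (SE 0.10, adjusted p = 0.125) as deposited and -0.02 (adjusted p = 0.907) after scaling. As deposited it passed without RBX2iCKO replicate 3 (0.29, adjusted p = 0.0393), and with the title-number covariate (0.27, adjusted p = 0.0382). The 3 genes together summed to 91.5 ± 7.20 FPKM in RBX2iCKO and 93.0 ± 5.199 FPKM in WT libraries (SD, n = 4 each). Mef2c made up 16.4% ± 1.37 of that sum in RBX2iCKO and 13.7% ± 0.39 in WT libraries.

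Hand2, a basic helix-loop-helix factor of the developing ventricle, had 14.9, 17.4, 21.9 and 19.3 FPKM in RBX2iCKO libraries, against 14.7, 13.1, 11.0 and 16.9 FPKM in WT libraries. One WT library lay above the lowest RBX2iCKO library, and the difference was 0.38 (SE 0.14, adjusted p = 0.0611) as deposited and 0.14 (adjusted p = 0.519) after scaling. It passed as deposited without RBX2iCKO replicate 1 (0.47, adjusted p = 0.0383) or without WT replicate 4 (0.47, adjusted p = 0.0385). Hand2os1, on the opposite strand, shares 461 exonic bases with Hand2 and averaged 42.3 ± 13.0 FPKM in RBX2iCKO and 35.5 ± 7.28 FPKM in WT libraries (adjusted p = 0.415). RBX2iCKO replicate 3 was the highest library for both genes. The Hand2 promoter is shown because it holds 3 of the 5 strings: HAND E-box from position -246, NK2 from -235 and GATA from -172 (GRCm38.p6, plus strand, chr8:57320733-57321032).
Hand2: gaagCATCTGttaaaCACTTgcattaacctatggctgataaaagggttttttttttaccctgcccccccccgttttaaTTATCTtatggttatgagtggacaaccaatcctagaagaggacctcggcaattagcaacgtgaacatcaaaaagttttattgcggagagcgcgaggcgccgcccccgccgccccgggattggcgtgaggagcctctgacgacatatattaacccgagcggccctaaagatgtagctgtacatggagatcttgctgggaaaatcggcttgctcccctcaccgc

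Irx4, an Iroquois homeodomain factor of ventricular identity, had 21.2, 24.8, 17.1 and 21.5 FPKM in RBX2iCKO libraries, against 16.4, 17.9, 16.1 and 16.6 FPKM in WT libraries. RBX2iCKO replicate 3 lay within the WT range, and the other 3 above it. As deposited Irx4 was higher by 0.31 (SE 0.10, adjusted p = 0.0417). The call was lost after scaling (0.07, adjusted p = 0.699), after quantile normalization (0.11, adjusted p = 0.522), with mitochondrial-encoded genes removed (0.20, adjusted p = 0.218) and with no filter on low values (adjusted p = 0.0691). It was also lost with the title-number covariate (0.32, adjusted p = 0.0548), and in 7 of the 8 fits with a library left out (adjusted p up to 0.0962). Among those 8 fits it was kept only without RBX2iCKO replicate 3 (0.40, adjusted p = 0.00572).

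**Figure D2:**
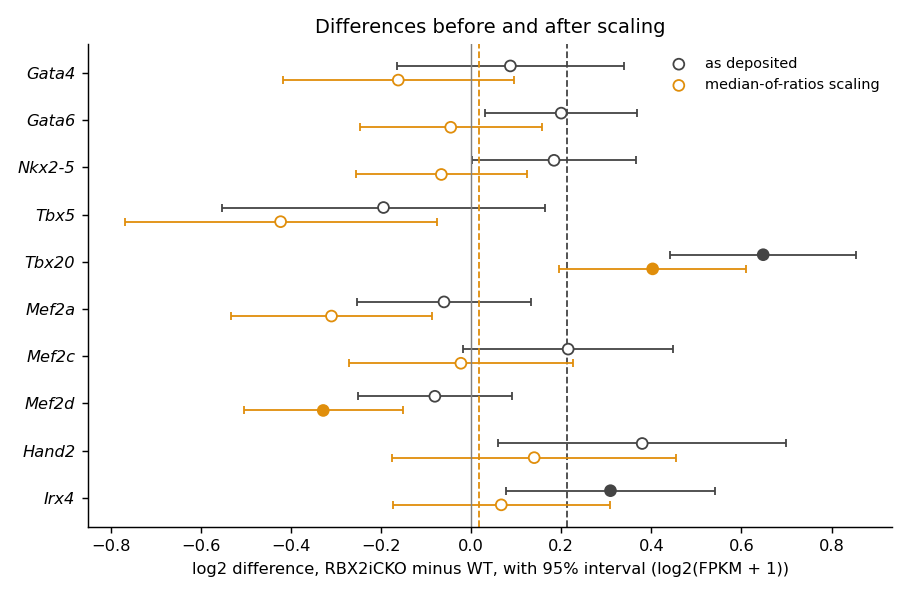
Log2 difference of each factor (horizontal axis, RBX2iCKO minus WT on log2(FPKM + 1)) with 95% intervals from limma, as deposited in grey and after scaling in orange. Filled points passed an adjusted p of 0.05, and dashed lines mark the median of all tested genes (0.21 and 0.02): Tbx20 alone is filled on both scales.

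RBX2iCKO replicate 3 had the lowest value of its group for 7 factors and the highest for Gata6 and Hand2. The same library had the lowest fibroblast sum of its group (1530 FPKM) and the highest cardiomyocyte sum (40560 FPKM). That cardiomyocyte sum was close to the 39980 FPKM of RBX2iCKO replicate 4. Several markers on the cardiomyocyte list were not highest in RBX2iCKO replicate 3. The part of either sum was not tested. By mean FPKM the order in RBX2iCKO was Nkx2-5, Mef2a, Gata4, Mef2d, Tbx20, Gata6, Irx4, Hand2, Mef2c and Tbx5. In WT it was Mef2a, Nkx2-5, Gata4, Mef2d, Gata6, Tbx20, Irx4, Hand2, Mef2c and Tbx5. Neighbours in these orders mostly overlapped in range. In RBX2iCKO the ranges were apart between Tbx20 and Gata6, Gata6 and Irx4, and Mef2c and Tbx5, and in WT between Nkx2-5 and Gata4, Mef2d and Gata6, Tbx20 and Irx4, and Mef2c and Tbx5. The order depends on the gene length used: per kilobase of all annotated exons, Mef2a would stand in place 7 in RBX2iCKO and 4 in WT, with Nkx2-5 first in both. On that length Mef2c would be the lowest of the 10 in both groups, at 6.17 in RBX2iCKO and 5.23 in WT, and Tbx5 next to it, at 6.91 in RBX2iCKO and 7.84 in WT (mean FPKM on that length).

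A ratio between 2 factors within a library does not depend on library scaling, and 8 such ratios were tested by exact permutation of the libraries (two-sided, 70 assignments). The ratio of Tbx20 to Tbx5 was 5.72, 2.80, 4.22 and 3.80 in RBX2iCKO libraries, against 2.26, 2.11, 2.34 and 1.93 in WT libraries. The ratio of Irx4 to Tbx5 was 3.47, 2.14, 2.40 and 2.71 in RBX2iCKO libraries, against 1.58, 1.92, 1.96 and 1.78 in WT libraries. The ratio of Mef2c to Mef2a was 0.371, 0.334, 0.317 and 0.336 in RBX2iCKO libraries, against 0.279, 0.266, 0.279 and 0.283 in WT libraries. In these 3 ratios all 4 RBX2iCKO values lay above all 4 WT values. Each had an exact p = 0.0286, the smallest this design can give, and an adjusted p = 0.0762 over the 8 ratios, so none passed. With only 3 of 8 ratios at that smallest p, no adjusted p could fall under 0.05, so the lack of a pass decides nothing. The log2 differences were 0.90, 0.55 and 0.29 in that order, and within the libraries with title numbers from 260 up they were 0.74, 0.36 and 0.22, where no exact p can fall below 0.2. The other 5 ratios overlapped between the groups, with adjusted exact p from 0.114 to 0.886. Tbx20/Tbx5 and Irx4/Tbx5 share Tbx5, so they are not separate observations. How often ratios between other tested genes do not overlap was not examined.

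**Figure D3:**
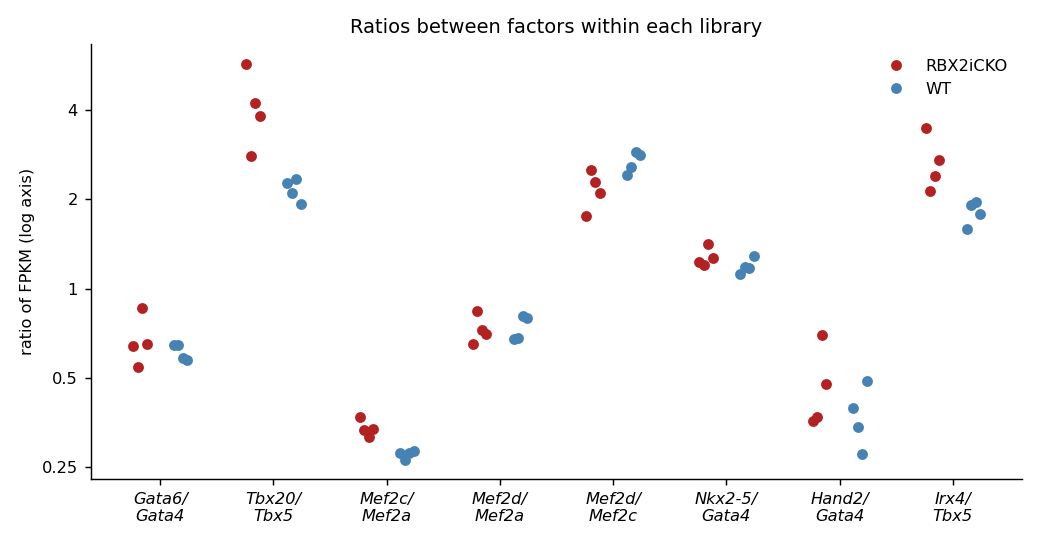
Ratios of FPKM between factors within each library (log axis), with RBX2iCKO points left of WT points. Tbx20/Tbx5, Mef2c/Mef2a and Irx4/Tbx5 do not overlap between the groups, at an adjusted exact p of 0.0762 each.

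The counts below stand beside shares over all tested genes of 33.5% higher and 3.52% lower as deposited, and 8.78% and 10.9% after scaling. Of 20 paralogs of the factors, 9 were tested, of which 3 were higher and 0 lower as deposited and none passed after scaling. Irx3, an Iroquois gene of the conduction system, averaged 15.7 ± 0.98 FPKM in RBX2iCKO and 11.9 ± 0.36 FPKM in WT libraries (adjusted p = 0.00445, and 0.234 after scaling). Gata2, Tbx2 and Irx5 did not pass (adjusted p = 0.178, 0.206 and 0.206), though Gata2 did without WT replicate 4 (adjusted p = 0.047). Among 19 DNA-binding partners and coactivators, 9 were higher and 0 lower as deposited, and 1 was higher and 2 lower after scaling. Nfatc4, a calcineurin-dependent partner of GATA4, averaged 2.85 ± 0.44 FPKM in RBX2iCKO and 1.25 ± 0.27 FPKM in WT libraries and rose on both scales (adjusted p = 0.00287, and 0.00655 after scaling). Myocd and Mrtfa, coactivators of SRF, and Crebbp, a histone acetyltransferase, passed as deposited only (adjusted p = 0.00736, 0.00899 and 0.0121).

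Of 14 repressors, kinases and phosphatase subunits that act on MEF2 proteins, 7 were higher and 0 lower as deposited, and 4 were higher and 3 lower after scaling. For all tested genes the shares were 33.5% higher and 3.52% lower as deposited, and 8.78% and 10.9% after scaling. Hdac7, a class II deacetylase that represses MEF2, averaged 14.9 ± 1.70 FPKM in RBX2iCKO and 9.46 ± 1.17 FPKM in WT libraries (adjusted p = 0.00416, and 0.0218 after scaling). Cabin1, another MEF2 repressor, averaged 6.67 ± 0.72 FPKM in RBX2iCKO and 4.21 ± 0.38 FPKM in WT libraries (adjusted p = 0.00331, and 0.0181 after scaling). Prkd2 and Mapk7, kinases that act on this axis, also rose on both scales (adjusted p = 0.0325 and 0.0145 after scaling). Among left-out libraries, the scaled calls were lost for Hdac7 without RBX2iCKO replicate 2 or WT replicate 2 (adjusted p = 0.0514 and 0.0578), for Cabin1 without WT replicate 3 (0.0512), and for Prkd2 without RBX2iCKO replicate 1, 2 or 4 or WT replicate 1 or 2 (0.0667 to 0.0838). Of 16 other heart lineage factors, 14 were tested, of which 5 were higher and 0 lower as deposited, and 1 was higher after scaling. That 1 was Tcf21, a factor of epicardium-derived fibroblasts that is also on the fibroblast list, with 12.0 ± 2.65 FPKM in RBX2iCKO and 6.20 ± 1.32 FPKM in WT libraries (adjusted p = 0.00662, and 0.021 after scaling). Its scaled call was lost without RBX2iCKO replicate 1 or 2 or WT replicate 2 or 3 (adjusted p = 0.0533 to 0.0606). Nr2f2 and Foxo1 passed as deposited only (adjusted p = 0.0154 and 0.0112).

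Of 36 genes known as targets of these factors, 11 were higher and 4 lower as deposited, and 6 were higher and 9 lower after scaling. Among all tested genes, 33.5% were higher and 3.52% lower as deposited, and 8.78% and 10.9% after scaling. Nppa, the atrial natriuretic peptide gene and a target of GATA4, NKX2-5 and TBX5, had 448, 416, 391.7 and 281 FPKM in RBX2iCKO libraries, against 19.2, 14.3, 3.51 and 4.97 FPKM in WT libraries. It rose by 5.31 on the log2 scale (SE 0.44, adjusted p = 0.000388). Ankrd1, a stress-responsive sarcomere gene, averaged 1643 ± 208.4 FPKM in RBX2iCKO and 324 ± 82.3 FPKM in WT libraries (adjusted p = 0.000224). Myh7, the slow myosin heavy chain, averaged 483 ± 297 FPKM in RBX2iCKO and 54.7 ± 10.7 FPKM in WT libraries (adjusted p = 0.00129). Atp2a2, the calcium pump of the sarcoplasmic reticulum, fell to 2367 ± 261.2 FPKM in RBX2iCKO, against 3852 ± 158 FPKM in WT libraries (adjusted p = 0.00166). These 4 also passed after scaling, in the same directions.

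The Nppa promoter is shown because this target had the largest difference on the list. It holds the T-box string on the minus strand from position -250 and the NK2 string from -239 and from -65 (GRCm38.p6, plus strand, chr4:148000472-148000771). Of 33 target genes with a promoter entry, 8 held the GATA string, 14 the NK2 string, 6 the T-box string, 2 the MEF2 string and 3 the HAND E-box string. In that order these are 24.2%, 42.4%, 18.2%, 6.1% and 9.1% of the genes. A gene counted if any of its promoters matched, whereas the shares of 11.18%, 46.38%, 3.98%, 0.52% and 17.15% above count single promoters. A match is a description of letters only.
Nppa: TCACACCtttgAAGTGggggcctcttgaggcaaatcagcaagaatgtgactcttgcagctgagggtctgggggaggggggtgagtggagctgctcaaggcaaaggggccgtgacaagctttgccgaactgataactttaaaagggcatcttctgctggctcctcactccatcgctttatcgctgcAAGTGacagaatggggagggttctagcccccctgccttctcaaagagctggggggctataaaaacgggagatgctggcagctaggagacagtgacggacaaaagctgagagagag

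**Figure D4:**
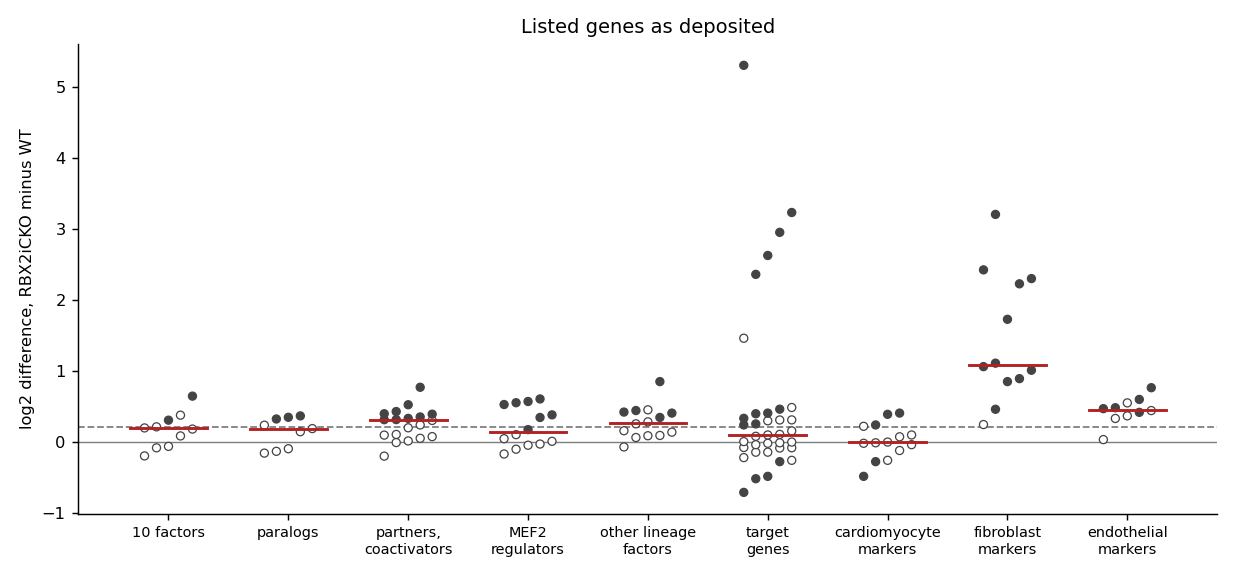
Log2 difference as deposited (vertical axis, RBX2iCKO minus WT) of every tested gene of 9 lists, filled where the adjusted p was under 0.05, with red bars at list medians and a dashed line at the median of all tested genes (0.21). The factors have a median of 0.19, the targets 0.10 and the fibroblast markers 1.09.

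Among the markers of cell types, 11 of 12 fibroblast genes were higher as deposited and 9 after scaling, and 5 of 10 endothelial genes as deposited and 0 after scaling. Of 14 cardiomyocyte genes, 3 were higher and 2 lower as deposited, and 0 higher and 4 lower after scaling. Mural markers had 2 of 9 higher and 1 lower, macrophage markers 2 of 9 higher and atrial markers 1 of 6 higher, all as deposited. After scaling, 1 mural marker was higher and 1 lower, and no macrophage, atrial or Schwann cell marker passed. All tested genes had shares of 33.5% higher and 3.52% lower as deposited, and 8.78% and 10.9% after scaling. Of Schwann cell markers, 1 of 3 tested was higher as deposited, and no tested mesothelial, adipocyte or lymphocyte marker passed.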

How the data were processed

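Polyadenylated RNA of 8 ventricle samples was sequenced by Novogene after TRIzol extraction, per the labels' protocols. The authors deposited a table of FPKM per gene, and the submitters' processing notes name build mm10. The sources used here name no aligner, counting tool, annotation or strand setting. Places and exon overlaps come from GENCODE M21. Whole fragments were recovered from FPKM and gene length for 13049 of 13050 tested genes (tolerance 0.01). Libraries of the same group differed beyond counting noise, RBX2iCKO replicate 3 the most. Chi-square per degree of freedom was 42.4 to 61.5 for its pairs and 19.9 to 30.2 for the other RBX2iCKO pairs. For WT pairs it was 10.6 to 20.8.

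Values of log2(FPKM + 1) went into limma 3.58.1 (R 4.3.3, eBayes with a trend, two-sided, Benjamini-Hochberg over all tested genes, threshold 0.05), which was also tested on simulated data. The pseudocount of 1 understates changes of low genes. Differences are RBX2iCKO minus WT. Ratios were judged on the exact p adjusted over the 8, in every setting. Groups follow the genotype label, and replicate numbers follow accession order and only name libraries. The factors and lists were chosen with earlier results of these data known. Named genes were all factors, Rnf7, Esr1 and, in each list of genes other than markers, up to 4 with the smallest p at a mean of at least 1 FPKM, with the 2 most abundant of each marker list. A gene that this rule takes is not reported here. Other scalings, filters, pseudocounts, weights, a title-number covariate, limma voom on recovered fragments and left-out libraries were tried.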

Additional observations from a re-analysis of the deposited data

Results flagged for a closer look

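Among 120 sets of 4 libraries checked for a library far from the other 3, 3 stood apart, where chance alone gives about 1 in 20, or 6. Ankrd1 was highest in RBX2iCKO replicate 3, at 1953 FPKM, where the other RBX2iCKO libraries had 1503 to 1562 FPKM. Nr2f2 was lowest in the same library, at 3.71 FPKM, where the others had 4.62 to 4.75 FPKM. Cd3g, a lymphocyte marker, was highest in WT replicate 3, at 1.46 FPKM, where the other WT libraries had 0.242 to 0.390 FPKM. None of the 10 factors had such a library in either group.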

How the results depend on the processing

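Factors higher in RBX2iCKO numbered 2 as deposited. They numbered 1 with no filter, after scaling, after quantile normalization and with mitochondrial-encoded genes removed, 4 with array weights, and 1 to 4 with a library left out (1 after scaling). Factors lower numbered 0 as deposited, 1 after scaling, 0 to 1 with a library left out and 1 to 2 with both. Listed genes higher numbered 35 as deposited, 23 at a mean of at least 5 FPKM, 12 after scaling, 11 after quantile normalization, 17 without mitochondrial-encoded genes, 26 to 35 with a library left out and 8 to 13 with scaling too. Listed genes lower numbered 4 as deposited, 2 with no filter, 14 after scaling, 3 to 5 with a library left out and 7 to 11 with scaling too. Of all genes, 4374 were higher as deposited, 2478 at a mean of at least 5 FPKM, 1146 after scaling, 864 after quantile normalization, 2080 without mitochondrial-encoded genes, 2895 to 4386 with a library left out and 677 to 1367 with scaling too. Of all genes, 459 were lower as deposited, 1419 after scaling, 1241 after quantile normalization, 711 without mitochondrial-encoded genes, 327 to 452 with a library left out and 979 to 1463 with scaling too. Signs turned for Gata4 after scaling (-0.16), quantile normalization (-0.074) and removal of mitochondrial-encoded genes (-0.029), for Gata6 (-0.045) and Nkx2-5 (-0.066) after scaling, and for Mef2c after scaling (-0.023) and quantile normalization (-0.0082). They also turned for Irx5 (-0.072 and -0.11) and Tbx2 (-0.0011 and -0.094) after scaling and quantile normalization, and for Gata2 (-0.037) after quantile normalization. With a library left out, over both scales, Gata4 ranged from -0.23 to 0.20, Gata6 from -0.12 to 0.24, Nkx2-5 from -0.11 to 0.25, Mef2c from -0.11 to 0.29, Gata2 from -0.054 to 0.35, Irx5 from -0.13 to 0.19 and Tbx2 from -0.064 to 0.26. With a library left out, the log2 ratio difference ranged from -0.0063 to 0.22 for Gata6/Gata4, -0.090 to 0.031 for Mef2d/Mef2a, 0.72 to 1.07 for Tbx20/Tbx5, 0.41 to 0.65 for Irx4/Tbx5 and 0.25 to 0.32 for Mef2c/Mef2a, and no exact p can then fall below 0.0571. Gata6 and Mef2c passed with the title-number covariate (adjusted p = 0.047 and 0.0382), and Gata6 and Nkx2-5 with array weights (0.0478 and 0.0304). Prkd2 and Mapk7 did not pass after quantile normalization (0.0648 and 0.0642). The cause of these changes was not tested. No paired analysis was possible because the replicate numbers follow accession order and carry no pairing.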
